A study of Mus musculus with 6 samples.

Results

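The markers of tubular injury and repair described here are 10 genes: Havcr1, Lcn2, Vcam1, Sox9, Krt20, Spp1, Clu, Cdkn1a, Cd44 and Dcdc2a. They were chosen by symbol from the 33696 genes of the deposited matrices, and all 10 were found once. Whole kidneys were dissociated and their single cells sequenced, from 3 mice given DOCA-salt and 3 given a sham treatment, with 1 library per mouse and therefore n = 3 in each group. All were male C57BL/6 mice of 8 to 10 weeks. DOCA-salt mice had their left kidney removed 1 week before a 50 mg pellet of deoxycorticosterone acetate (DOCA), a mineralocorticoid, was placed under the skin, and drank 1% NaCl for 21 days. Sham mice had a sham operation and drank normal water. The model therefore joins the loss of a kidney, the hormone and the salt, and the part of each in any difference cannot be told apart. The question asked of these genes was which cell types carried each of them in sham and in DOCA-salt kidneys, and how often they occurred in the same cell.

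Injured tubular epithelium loses part of its mature program, spreads over the bare basement membrane and turns on genes that are low in the healthy adult tubule. Havcr1 encodes KIM-1, a receptor for dying cells on injured proximal tubule, and Lcn2 encodes NGAL, a protein released by the distal nephron that binds bacterial iron carriers; both proteins are used as urinary signs of injury. Sox9 is a transcription factor of repair, Krt20 a keratin filament, and Vcam1 an adhesion molecule that lymphocytes and macrophages bind and that marks proximal cells whose repair is incomplete. Spp1 (osteopontin) and Clu (clusterin) are secreted, Cd44 is a receptor for hyaluronan and osteopontin, Cdkn1a encodes the cell cycle inhibitor p21, and Dcdc2a encodes a microtubule-binding protein. Several of them have well known sources outside the tubule, among them Vcam1 in endothelium and Cd44 in leukocytes.

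The 6 libraries held 93172739 to 137819127 unique molecular identifiers (UMIs, each 1 captured transcript), and 55630 of 76774 barcodes were kept as cells. Any pair of libraries shared 33 to 69 barcode sequences. Proximal tubule was the largest class, with 62.0 ± 2.64% (mean ± SD) of cells in sham mice and 52.6 ± 4.09% in DOCA-salt mice. A cluster led by C3, Ptgds and Sox9 was kept apart by a rule for large clusters whose first leading gene was C3. Its best marker class was parietal-like, while its leading genes held none of that class's markers. Some other clusters without such markers among their leading genes kept the name of their best class. It held 18, 33 and 48 cells in sham mice 1 to 3 and 210, 234 and 287 in DOCA-salt mice 1 to 3, which is 0.365 ± 0.160% and 2.59 ± 0.331% of cells (exact permutation test, two-sided, p = 0.1, the smallest that 3 against 3 mice can give). Since Sox9 is among its leading genes, the level of Sox9 in the cluster describes the cluster and was not tested against other cells. Only the change of Sox9 between the groups was compared with that in proximal tubule. The 10 markers themselves were kept out of the genes used for clustering. Clusters of which DOCA-salt mouse 2 gave almost every cell (622 cells from DOCA-salt mice and 10 from sham mice) were set aside from every cell type, although proximal tubule was their best class, and remained in the whole-kidney sums.

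In the GRCm39 genome the markers lie on several chromosomes. Havcr1 is at chr11:46625907-46670405, Sox9 at chr11:112673009-112678586 and Krt20 at chr11:99319227-99328985, all on chromosome 11. Lcn2 (chr2:32274645-32278264) and Cd44 (chr2:102641486-102732010) share chromosome 2. Vcam1 is at chr3:115903598-115923355, Spp1 at chr5:104582165-104589235, Dcdc2a at chr13:25239454-25394689, Clu at chr14:66190200-66218999 and Cdkn1a at chr17:29309936-29319701. Exons of Vcam1, Sox9, Cdkn1a and Cd44 overlap those of antisense or divergent noncoding genes, by 61 bases for Vcam1 with Gm43109 and 156 bases for Sox9 with BC006965, and an exon of Spp1 overlaps one of Gm42793 on the same strand by 181 bases. How the counting divided reads over shared bases is not given in the sources used here.

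The 250 bases that end 10 bases before the start of the canonical transcript are shown for the 4 markers whose levels set the C3-led cells and the distal segments apart, so that their flanking sequence can be read beside their values. Each runs 5′ to 3′ on the gene's strand, and capitals mark letters that match the AP-1 motif (TGANTCA) or a TATA box (TATAAA), searched on both strands together with NF-kB and p53 sites. Sox9 (chr11:112672749-112672998, plus strand), Vcam1 (chr3:115923358-115923607, minus strand), Krt20 (chr11:99328996-99329245, minus strand) and Dcdc2a (chr13:25239194-25239443, plus strand) read as follows.
Sox9: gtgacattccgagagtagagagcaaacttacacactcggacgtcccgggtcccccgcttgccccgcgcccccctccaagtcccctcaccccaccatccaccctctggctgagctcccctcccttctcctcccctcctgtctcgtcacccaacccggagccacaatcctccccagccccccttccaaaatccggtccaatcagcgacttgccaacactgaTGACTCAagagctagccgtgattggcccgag
Vcam1: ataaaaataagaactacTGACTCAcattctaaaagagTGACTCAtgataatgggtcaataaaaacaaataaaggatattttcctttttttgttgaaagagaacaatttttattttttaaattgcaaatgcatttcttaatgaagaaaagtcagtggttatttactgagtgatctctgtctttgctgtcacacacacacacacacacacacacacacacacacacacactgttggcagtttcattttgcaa
Krt20: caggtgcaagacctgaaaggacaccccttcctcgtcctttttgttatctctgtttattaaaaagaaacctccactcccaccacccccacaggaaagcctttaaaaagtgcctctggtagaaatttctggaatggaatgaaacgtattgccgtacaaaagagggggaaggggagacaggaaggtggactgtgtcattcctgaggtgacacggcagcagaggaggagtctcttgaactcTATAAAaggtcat
Dcdc2a: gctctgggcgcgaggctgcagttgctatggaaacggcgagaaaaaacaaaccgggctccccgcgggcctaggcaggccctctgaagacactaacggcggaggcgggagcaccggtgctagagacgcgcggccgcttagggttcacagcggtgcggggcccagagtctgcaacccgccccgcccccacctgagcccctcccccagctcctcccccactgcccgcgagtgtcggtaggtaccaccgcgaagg
The window of Vcam1 holds the AP-1 letters at 2 places, 243 to 237 and 223 to 217 bases before the start. Sox9 holds them 41 to 35 bases before the start, and Krt20 holds a TATA box 23 to 18 bases before it. The same window of Lcn2, of which 207 bases lie in exons of its other transcripts, holds letters of an NF-kB site 202 to 193 bases before the start on the opposite strand. The windows of the other 6 markers hold none of the 4 motifs. Of 21757 such windows in the genome, 6.21% hold the AP-1 letters, 12% the TATA letters, 4.12% an NF-kB site and 6.78% a p53 site, so these matches describe the letters only.

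In whole kidneys, 8 of the 10 markers rose in DOCA-salt mice, where 11.5% of all genes tested rose (edgeR's quasi-likelihood test on UMIs summed per mouse, with Benjamini-Hochberg adjustment over all genes). Havcr1 rose most, from 0.243, 0.265 and 0.599 CPM (a gene's UMIs per 1000000 UMIs of all genes, summed over the same cells) in sham mice 1 to 3 to 10.0, 9.01 and 13.3 CPM in DOCA-salt mice 1 to 3 (log2 change 4.77 ± 0.34 (SE), adjusted p = 2.7e-04). The lowest DOCA-salt mouse lay far above the highest sham mouse. Lcn2, Vcam1 and Sox9 rose by about the same amount, with log2 changes of 2.16 ± 0.27, 2.01 ± 0.16 and 2.00 ± 0.22 (adjusted p = 0.0018, 3.3e-04 and 0.0012). Spp1 (1.95 ± 0.29), Dcdc2a (1.69 ± 0.15), Krt20 (1.60 ± 0.23) and Cd44 (1.11 ± 0.19) rose as well, at adjusted p values of 4.6e-04 to 0.007. Clu had 79.7, 50.5 and 170.1 CPM in the sham mice and 186, 285 and 168 CPM in the DOCA-salt mice, and the groups overlapped (log2 change 0.96 ± 0.42 (SE), adjusted p = 0.16). Cdkn1a had 55.9, 47.0 and 52.8 CPM in the sham mice and 46.3, 58.9 and 58.7 CPM in the DOCA-salt mice (log2 change -0.05 ± 0.12 (SE), adjusted p = 0.82). A sum over the whole kidney moves both with the number of cells of each type and with the RNA per cell, and the levels within each type follow.

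The markers differed in where their UMIs lay, and not all of them were mainly tubular. Tubular cells, including the C3-led cluster, held 96.2% of Havcr1 UMIs in the sham group and 83.4% in the DOCA-salt group, and 95.2% and 80.4% of those of Lcn2. For Lcn2 most of that share was distal (78.9% and 63.1% of all its UMIs), as it was for Clu (61.2% and 53.7%). Vcam1 was mainly endothelial in sham kidneys, where endothelial cells held 64.1% of its UMIs, and less so in DOCA-salt kidneys (25.3%, against 39.3% in tubular cells). Immune cells held 76.2% of Cd44 UMIs in the sham group and 59.4% in DOCA-salt kidneys, and tubular cells only 11.1% and 22.6%. Cdkn1a was divided between tubular cells (46.9% and 37.7%) and endothelial cells (36.2% and 26.6%). In this sense Cd44, Vcam1 and Cdkn1a, measured over a whole kidney, were not markers of tubular cells alone. Over all tubular cells, the same 8 markers as in whole kidneys rose, where 5.29% of all genes rose. Krt20 did not pass there with cell types from markers of single cells (adjusted p = 0.063).

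**Figure D1:**
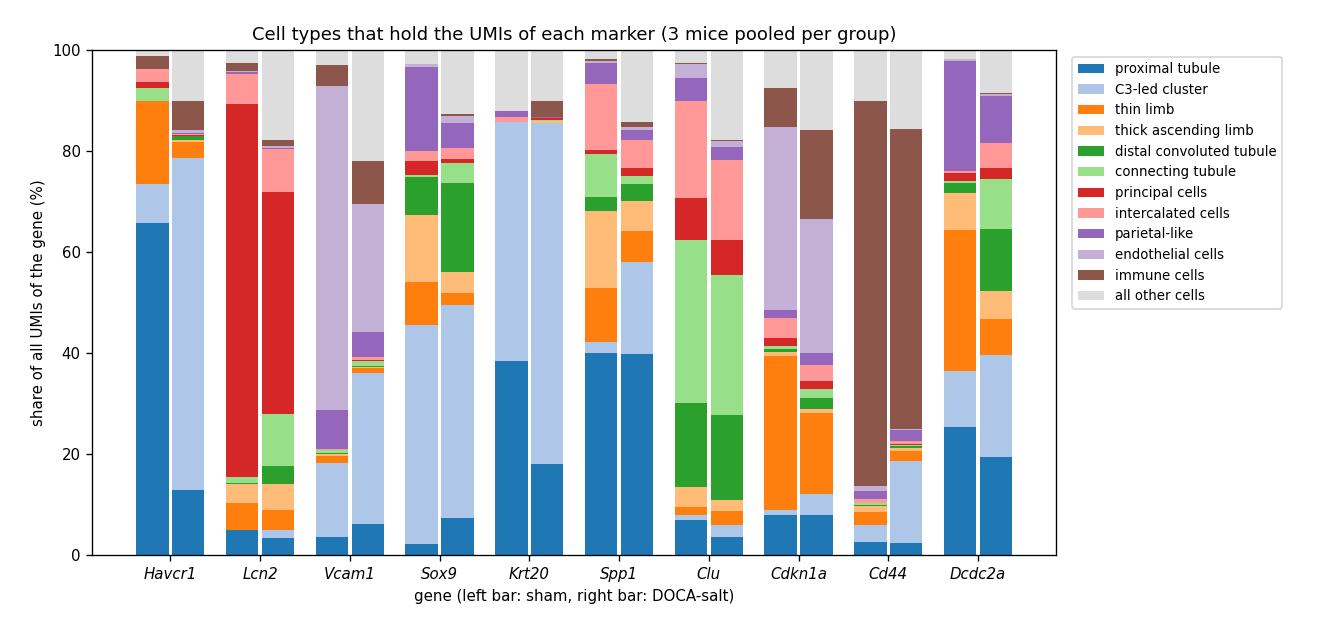
Share of all UMIs of each marker (vertical axis, %) held by each cell type, pooled over the 3 sham mice (left bar) and the 3 DOCA-salt mice (right bar). The C3-led cluster holds most Havcr1 UMIs in DOCA-salt kidneys, immune cells most Cd44 UMIs in both groups, and endothelial cells most Vcam1 UMIs in sham kidneys.

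**Figure D2:**
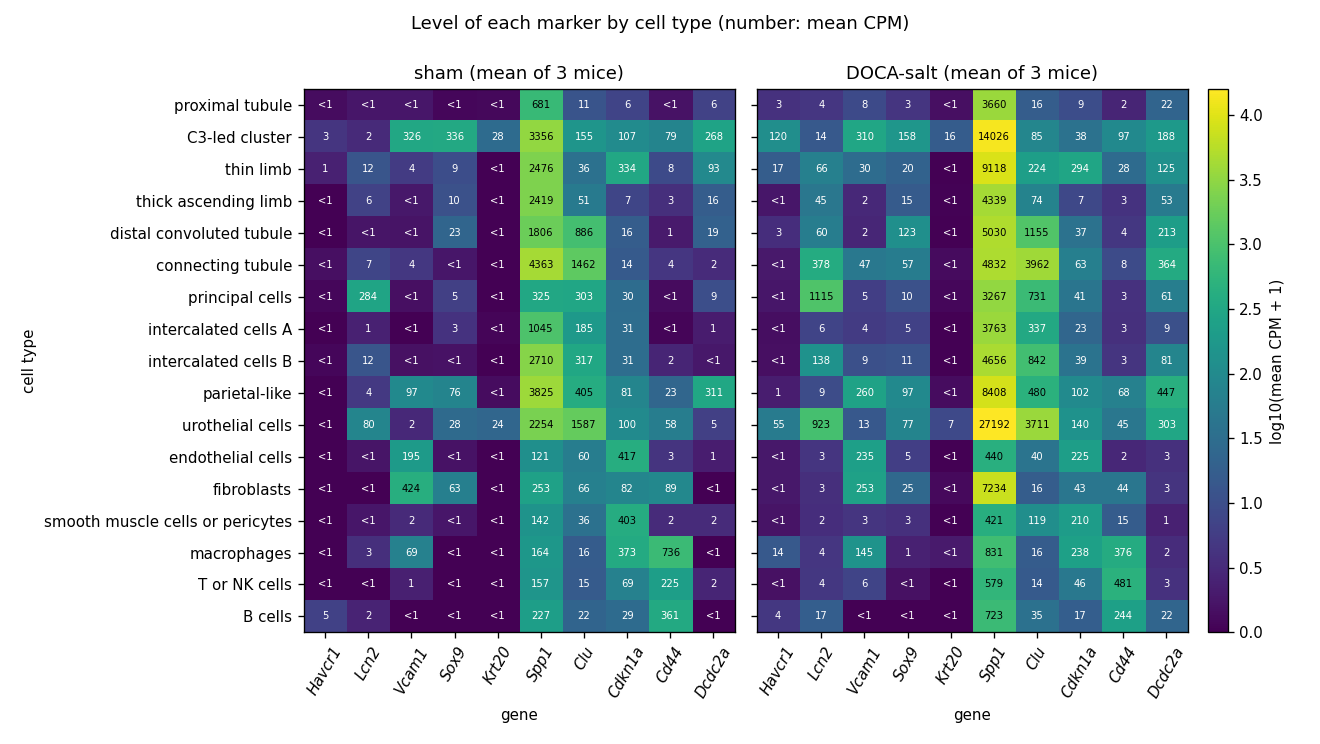
Mean CPM of each marker (columns) in each cell type (rows) in sham mice (left panel) and DOCA-salt mice (right panel), with the color on a log10(CPM + 1) scale and the mean CPM printed in each cell. Krt20 is highest in the C3-led cluster, and Clu is high in the distal convoluted and connecting tubule. Lcn2 is high in principal cells in both groups and, in DOCA-salt mice, also in the connecting tubule.

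Havcr1, the receptor of injured proximal tubule, was highest in DOCA-salt kidneys in a small population, while most cells with a Havcr1 UMI lay outside it. In the C3-led cluster its level was 0, 4.01 and 6.21 CPM in the sham mice and 144, 93.0 and 123 CPM in the DOCA-salt mice, and it rose (log2 change 4.84 ± 0.40 (SE), adjusted p = 6.8e-07). The DOCA-salt mice were all far above the sham mice, whose sum rested on 6 UMIs in all. Havcr1 thus passed edgeR's filter on low counts through the DOCA-salt mice, and a call of lower was hardly possible. The cluster's 1832 Havcr1 UMIs were 65.6% of all those in DOCA-salt kidneys, although the cluster held 2.59% of the cells. Proximal tubule cells, which are far more numerous, had 0.300, 0.315 and 0.518 CPM in the sham mice and 2.28, 2.00 and 4.47 CPM in the DOCA-salt mice (log2 change 2.89 ± 0.38 (SE), adjusted p = 0.0045). The change was larger in the C3-led cluster than in proximal tubule, by 2.25 ± 0.65 (SE, adjusted p = 0.014) on the log2 scale, but this difference no longer passed without sham mouse 3 (adjusted p = 0.14). Of 639 cells of DOCA-salt kidneys with at least 1 Havcr1 UMI, 258 were proximal tubule, 212 C3-led and 169 elsewhere. Of 59 cells with at least 10 UMIs, 47 were C3-led and 2 proximal tubule, and sham kidneys held 51 and 1 cells at these limits. In the other tested cell types Havcr1 had too few UMIs for a test. Cycling and urothelial cells, in which no test was run, held no Havcr1 UMI in sham mice and 106 each in DOCA-salt mice, at 16.7 to 18.5 CPM and 27.5 to 88.4 CPM. Against the floor of 3 UMIs over the sham cells, Havcr1 was at least 17.9-fold higher in cycling cells and at least 5.89-fold higher in urothelial cells, of which sham mice gave only 19. The cycling cells were not of the same clusters in both groups, since 1 cluster with the endothelial genes Plvap and Gpihbp1 held 0, 0 and 3 cells in the sham mice and 31, 36 and 24 in the DOCA-salt mice. The fold is therefore not one within a single kind of cell. In the thick ascending limb it was at 0 in every sham mouse, which allows up to 0.190 CPM over the sham cells, and at 0.770 to 0.819 CPM in the DOCA-salt mice. Its level of 40.5 CPM in macrophages of DOCA-salt mouse 2, and of 47.9 CPM in the thin limb of DOCA-salt mouse 3, came almost wholly from 1 barcode each.

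Krt20, the keratin of stressed tubule, was carried mainly by the same cluster, where it was lower in DOCA-salt mice. It had 20.8, 30.1 and 34.1 CPM in the sham mice and 19.2, 13.6 and 14.1 CPM in the DOCA-salt mice in C3-led cells, with the groups apart (log2 change -0.92 ± 0.29 (SE), adjusted p = 0.047). The call was lost in 5 of the 6 fits that left out 1 mouse, with adjusted p up to 0.33, and by DESeq2, a second count model (0.089). In proximal tubule it had 0.250, 0.270 and 0.207 CPM in the sham mice and 0.432, 0.358 and 0.740 CPM in the DOCA-salt mice and did not pass the test (log2 change 0.96 ± 0.36 (SE), adjusted p = 0.14). The groups did not overlap there either, but the level stayed below 1 CPM. In thin limb and distal convoluted tubule it was at 0 in all 6 mice, which allows up to 0.291 and 0.793 CPM over the sham cells.

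Vcam1 rose in proximal tubule from 0.849, 0.449 and 1.17 CPM in the sham mice to 5.32, 8.26 and 9.73 CPM in the DOCA-salt mice (log2 change 3.18 ± 0.33 (SE), adjusted p = 0.0017). In C3-led cells it was far higher in every mouse of either group, with 358, 335 and 284 CPM in the sham mice and 314, 318 and 299.6 CPM in the DOCA-salt mice (log2 change -0.04 ± 0.15 (SE), adjusted p = 0.93). The change in the cluster was smaller than that in proximal tubule by -3.11 ± 0.22 (SE, adjusted p = 1.1e-13) on the log2 scale. Sox9, the repair factor, rose in proximal tubule from 0.166, 0.112 and 0.233 CPM to 2.94, 2.51 and 4.82 CPM (log2 change 4.26 ± 0.36 (SE), adjusted p = 8.0e-04) and fell in C3-led cells from 326, 403 and 279 CPM to 174, 154 and 145 CPM (log2 change -1.07 ± 0.16 (SE), adjusted p = 2.2e-04). These opposite changes differed by -5.18 ± 0.29 (SE, adjusted p = 8.9e-17). Since Sox9 is a leading gene of the cluster, its cells are high in Sox9 in either group. The part of how the classes were drawn in this difference was not tested. The groups did not overlap in either class. The highest Sox9 level in endothelial cells of a DOCA-salt mouse, given below, was above these levels of proximal tubule. The part of RNA from other cells in the Sox9 rise was not tested.

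In proximal tubule 7 of the 10 markers rose in all, where 4.55% of genes rose: Havcr1, Lcn2, Vcam1, Sox9, Spp1, Cd44 and Dcdc2a. Dcdc2a, the microtubule-binding protein, had 7.92, 6.76 and 2.85 CPM in the sham mice and 15.6, 22.8 and 27.2 CPM in the DOCA-salt mice (log2 change 1.83 ± 0.32 (SE), adjusted p = 0.014). Cd44 had 0.466, 0.719 and 0.648 CPM in the sham mice and 1.28, 2.23 and 1.54 CPM in the DOCA-salt mice (log2 change 1.41 ± 0.29 (SE), adjusted p = 0.025) and Lcn2 1.18, 0.180 and 1.04 CPM in the sham mice and 2.71, 4.26 and 3.99 CPM in the DOCA-salt mice (log2 change 2.11 ± 0.47 (SE), adjusted p = 0.032). All 3 had DOCA-salt mice above every sham mouse, but their calls were the weakest. That of Lcn2 was lost in 5 of the 6 fits that left out 1 mouse (adjusted p up to 0.11), that of Cd44 in 4 (up to 0.09) and that of Dcdc2a without DOCA-salt mouse 3 (0.062). Clu (2.45 to 22.8 CPM in sham mice and 11.03 to 20.3 CPM in DOCA-salt mice) overlapped between the groups, and Cdkn1a (4.92 to 8.59 CPM in sham mice and 7.68 to 9.91 CPM in DOCA-salt mice) did too. With the set-aside clusters of DOCA-salt mouse 2 added back, the log2 changes of Lcn2 and Cd44 were 2.84 and 1.86 and neither passed (adjusted p = 0.069 and 0.071). Proximal tubule cells of DOCA-salt mice also held more RNA of fibroblast markers (summed level 0.472 to 2.36 CPM in sham mice and 12.1 to 21.8 CPM in DOCA-salt mice, 6 of 7 genes above in every mouse) and macrophage markers (51.2 to 74.2 CPM in sham mice and 84.9 to 98.2 CPM in DOCA-salt mice, 5 of 8). A cluster of 10 cells of sham mice and 40 of DOCA-salt mice in this class had macrophage genes such as Ccl8, Fcrls and Pf4 among its leading genes. Without it, a choice made after seeing the data, all 7 markers still passed, Cd44 with 0.400, 0.293 and 0.648 CPM in the sham mice and 0.885, 1.54 and 1.48 CPM in the DOCA-salt mice (log2 change 1.49 ± 0.35 (SE), adjusted p = 0.039). The part of the fibroblast markers, and of macrophage RNA in other cells, in the low levels of Vcam1, Cd44 and Lcn2 was not tested. Lcn2 and Sox9 reached similar levels in endothelial cells of DOCA-salt mice, as given below. The part of RNA from the segments richest in Lcn2 and Sox9 was not tested either.

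Along the proximal tubule, clusters with markers of S2, the middle stretch, had 7 markers higher, where 6.42% of genes were higher, and clusters of S1, the stretch next to the glomerulus, had 5, where 2.87% were. Both had Sox9, Vcam1, Lcn2, Spp1 and Dcdc2a in common. The cluster with macrophage genes, of 10 cells of sham mice and 40 of DOCA-salt mice, lay within S2. It held 23 Cd44 UMIs in sham and 55 in DOCA-salt mice, and 27 Vcam1 UMIs in DOCA-salt mice. S2 was not tested without it. In S1 the call of Lcn2 was lost in 3 and that of Spp1 in 4 of the 6 fits without 1 mouse (adjusted p up to 0.087 for both), and in S2 that of Lcn2 was lost in 4, that of Cd44 in 5 and that of Dcdc2a in 1 (up to 0.095, 0.12 and 0.051). Sox9 was higher in S1, at 0.123, 0.146 and 0.405 CPM in the sham mice and 4.63, 3.64 and 7.51 CPM in the DOCA-salt mice, than in S2, at 0.118, 0.0429 and 0.0524 CPM in the sham mice and 1.60, 1.13 and 1.69 CPM in the DOCA-salt mice, in every DOCA-salt mouse. Dcdc2a was the reverse, with 8.19 to 14.2 CPM in S1 and 21.0 to 40.5 CPM in S2 of DOCA-salt mice. Havcr1 had 0.354, 0.558 and 0.210 CPM in the sham mice and 2.62, 2.26 and 4.51 CPM in the DOCA-salt mice in S2 (log2 change 2.96 ± 0.39 (SE), adjusted p = 0.0029), and in S1 0.164, 0 and 0.752 CPM in the sham mice and 1.20, 1.58 and 4.12 CPM in the DOCA-salt mice, which did not pass (log2 change 2.94 ± 0.79 (SE), adjusted p = 0.078). Whether the changes differed between S1 and S2 was not tested. In S3, the straight end of the segment, only 3 markers had enough UMIs to be tested, and Spp1 alone rose, from 115, 178 and 153 CPM to 2730.4, 1624 and 2696 CPM (log2 change 3.93 ± 0.28 (SE), adjusted p = 8.9e-09), where 0.316% of genes rose. S3 held 37, 18 and 21 cells in the sham mice and 106, 89 and 63 in the DOCA-salt mice. Its sham levels of Spp1 lay within the range of B cells of sham mice, taken below as cells that should lack it.

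Within the C3-led cluster, 3 markers rose, where 3.83% of genes rose, and 4 fell, where 6.86% of genes fell. Havcr1 rose as given above, and with it Spp1, from 2600.3, 3937 and 3531 CPM to 17138, 8822 and 16117 CPM (log2 change 2.08 ± 0.25 (SE), adjusted p = 2.9e-05), and Lcn2, from 0, 2.01 and 4.66 CPM to 10.4, 13.6 and 16.9 CPM (log2 change 2.30 ± 0.62 (SE), adjusted p = 0.022). Besides Sox9 and Krt20, the cell cycle inhibitor Cdkn1a fell, from 198, 54.1 and 68.3 CPM to 41.9, 33.5 and 38.7 CPM (log2 change -1.29 ± 0.30 (SE), adjusted p = 0.0087), with sham mouse 1 standing well above the other sham mice. Without that mouse Cdkn1a no longer passed (adjusted p = 0.078). Clu had 194, 96.3 and 175 CPM in the sham mice and 76.0, 96.6 and 82.1 CPM in the DOCA-salt mice and was called lower although sham mouse 2 lay within the DOCA-salt range (log2 change -0.82 ± 0.20 (SE), adjusted p = 0.012). The call of Clu was lost in 4 of the 6 fits without 1 mouse (adjusted p up to 0.17). That of Lcn2 was lost without sham mouse 1 or 2 (adjusted p up to 0.073) and by DESeq2 (0.0504), and it had too few UMIs for a test in the 3 fits without a DOCA-salt mouse. Lcn2 entered the test through the DOCA-salt mice, so a call of lower was hardly possible. Sham mouse 1 gave 18 cells to this class.

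The C3-led cells of sham and DOCA-salt mice also differed in other genes. The summed level of 8 proximal tubule markers was 3597 to 5918 CPM in sham mice and 8834 to 9523 CPM in DOCA-salt mice, with all 8 above in every DOCA-salt mouse. Of 5 parietal-like markers the sum was 765 to 1142 CPM in sham mice and 459 to 497 CPM in DOCA-salt mice, with 4 below in every DOCA-salt mouse. Genes that respond to tissue dissociation summed to 10710.1 to 13675 CPM in sham mice and 7512 to 9074 CPM in DOCA-salt mice, and 8 macrophage markers to 162 to 191 CPM in sham mice and 75.5 to 92.9 CPM in DOCA-salt mice. Their part in the lower levels of Sox9, Krt20, Clu and Cdkn1a was not tested. When C3-led cells were counted together with proximal tubule, 8 markers rose, Krt20 among them, where 7.82% of genes rose. With cell types from markers of single cells, Krt20 and Cd44 did not pass there (adjusted p = 0.20 and 0.059), nor did Lcn2 without DOCA-salt mouse 3 (0.053).

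**Figure D3:**
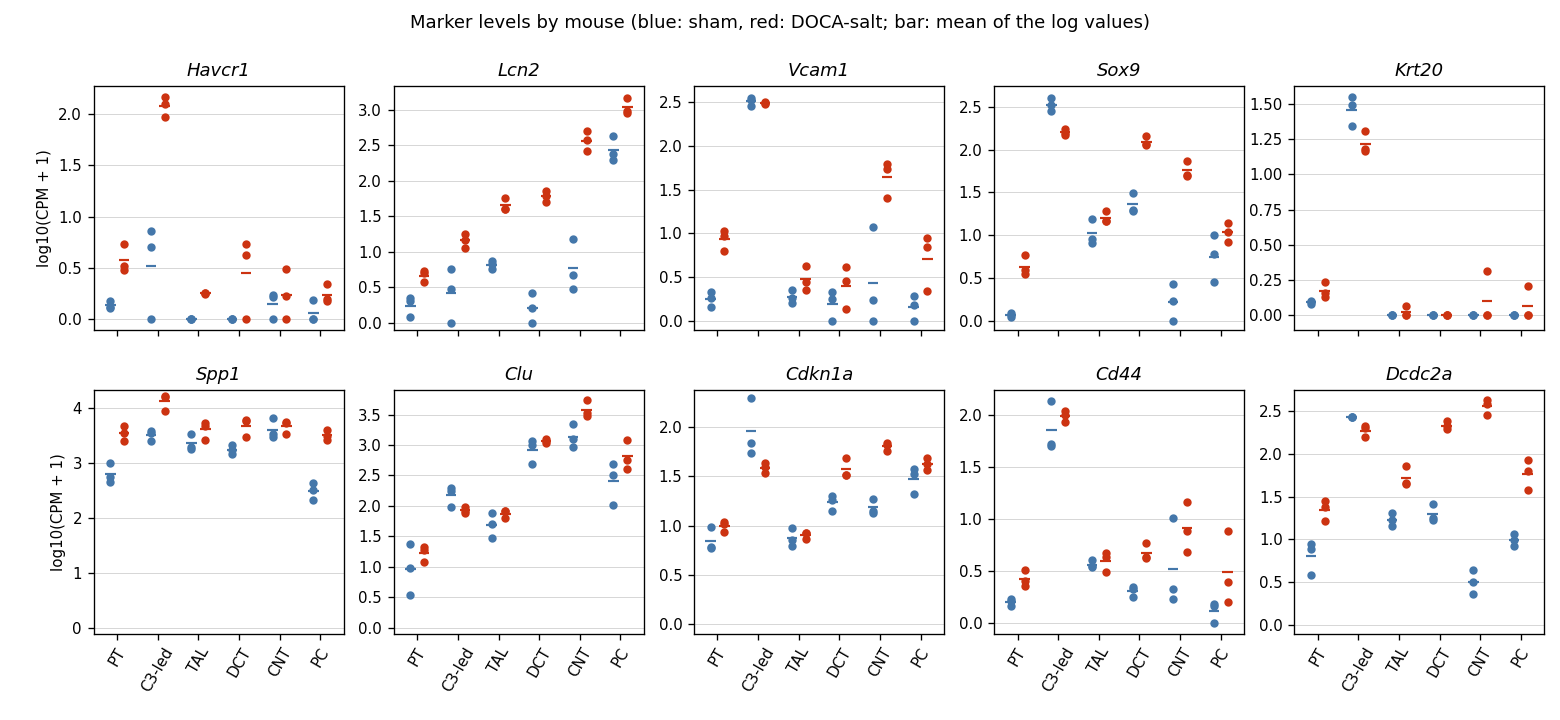
Level of each marker (vertical axis, log10(CPM + 1)) in 6 tubular classes (horizontal axis), with 1 point per mouse, sham in blue and DOCA-salt in red, and a bar at the mean of the log values (PT, proximal tubule; TAL, thick ascending limb; DCT, distal convoluted tubule; CNT, connecting tubule; PC, principal cells). Sox9 is higher in DOCA-salt mice in PT, DCT and CNT and lower in C3-led cells, and Dcdc2a is higher in every class shown but the C3-led one.

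The distal convoluted tubule and the connecting tubule, which fine-tune sodium and calcium under hormonal control, had large rises of other markers. In the connecting tubule 6 markers rose, where 11.7% of genes rose. Of these, Sox9, Dcdc2a, Lcn2 and Vcam1 were low in most sham mice and passed edgeR's filter on low counts through the DOCA-salt mice. For these markers a call of lower was hardly possible. Dcdc2a rose from 2.18, 1.31 and 3.42 CPM to 286, 382 and 423 CPM (log2 change 7.04 ± 0.29 (SE), adjusted p = 5.2e-09). Lcn2 rose from 3.63, 1.97 and 14.2 CPM to 258, 375 and 502 CPM (log2 change 5.56 ± 0.41 (SE), adjusted p = 6.6e-07) and Sox9 from 0.726, 0 and 1.71 CPM to 50.0, 48.8 and 72.9 CPM (log2 change 5.74 ± 0.44 (SE), adjusted p = 9.8e-07). For these 3 markers every DOCA-salt mouse was many times above every sham mouse. Vcam1 had 0.726, 0 and 10.8 CPM in the sham mice and 53.9, 24.4 and 61.2 CPM in the DOCA-salt mice (log2 change 3.23 ± 0.61 (SE), adjusted p = 0.0017), and sham mouse 3 held most of the sham UMIs. By DESeq2, Vcam1 did not pass (adjusted p = 0.14). Clu rose from 1258, 936 and 2192 CPM to 3418, 5475 and 2992 CPM (log2 change 1.27 ± 0.30 (SE), adjusted p = 0.0072, by DESeq2 0.057), and Cdkn1a from 13.1, 17.7 and 12.5 CPM to 68.0, 56.9 and 64.4 CPM (log2 change 1.95 ± 0.21 (SE), adjusted p = 1.7e-05). Spp1, in contrast, had 2986, 6608 and 3494 CPM in the sham mice and 5613, 3455 and 5428 CPM in the DOCA-salt mice and overlapped (log2 change -0.02 ± 0.26 (SE), adjusted p = 0.97).

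Cells called connecting tubule also differed between the groups in markers of cell types. Their own markers summed to 42043 to 54548 CPM in sham mice and 22541 to 31282 CPM in DOCA-salt mice and principal cell markers in them to 5265 to 7358 CPM in sham mice and 1712 to 2089.8 CPM in DOCA-salt mice, with 6 of 6 principal cell markers below in every DOCA-salt mouse. Proximal tubule markers were lower too (1607 to 4004 CPM in sham mice and 878 to 1466 CPM in DOCA-salt mice). Parietal-like markers were higher (151 to 176 CPM in sham mice and 258 to 460.4 CPM in DOCA-salt mice, 3 of 5 above in every DOCA-salt mouse), as were macrophage markers (31.9 to 39.3 CPM in sham mice and 74.97 to 82.1 CPM in DOCA-salt mice, 4 of 8) and fibroblast markers (0.57 to 1.45 CPM in sham mice and 14.1 to 21.1 CPM in DOCA-salt mice, 3 of 7). Fewer cells of another type among them and less RNA of these genes per cell cannot be told apart, and the part of these markers in the 6 rises was not tested. With cell types set from the markers of single cells in place of clusters, the log2 changes were 5.25 for Dcdc2a, 6.24 for Lcn2 and 4.85 for Sox9, all past the threshold, while Cdkn1a did not pass (adjusted p = 0.067).

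In the distal convoluted tubule 5 markers rose, where 4.64% of genes rose. Sox9 rose from 18.9, 30.4 and 18.4 CPM to 142, 113 and 115 CPM (log2 change 2.35 ± 0.20 (SE), adjusted p = 1.1e-06), Dcdc2a from 25.2, 15.8 and 16.6 CPM to 191, 208 and 239 CPM (log2 change 3.30 ± 0.20 (SE), adjusted p = 6.9e-08) and Lcn2 from 1.58, 0 and 0.615 CPM to 70.2, 49.6 and 60.3 CPM (log2 change 5.98 ± 0.40 (SE), adjusted p = 1.2e-07). Lcn2 rested on 3 UMIs in sham and 494 in DOCA-salt mice, a ratio of 74.4 after scaling to the total (exact 95% interval for counting error 25.3 to 362). It passed the filter on low counts through the DOCA-salt mice, so a call of lower was hardly possible. The groups were apart for all 3. Spp1 (1.32 ± 0.22, adjusted p = 0.0013) and Cdkn1a (1.05 ± 0.24, adjusted p = 0.012) rose less, and Cdkn1a no longer passed without sham mouse 3 or without DOCA-salt mouse 1 (adjusted p up to 0.11). Clu was high and overlapped, at 483 to 1160.1 CPM in sham mice and 1066 to 1253 CPM in DOCA-salt mice. In these cells the genes that respond to dissociation summed to 4833 to 5771 CPM in sham mice and 7014 to 11184 CPM in DOCA-salt mice, with 12 of 17 above in every DOCA-salt mouse, and the median depth was 4118 UMIs in sham and 8767 UMIs in DOCA-salt mice. Macrophage markers summed to 16.9 to 30.1 CPM in sham mice and 67.6 to 78.7 CPM in DOCA-salt mice, fibroblast markers to 0 to 2.46 CPM and 7.76 to 15.8 CPM, and the segment's own 5 markers to 11451 to 13473 CPM and 8772 to 9451 CPM. Their part in the rises was not tested.

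Upstream, in the thick ascending limb, which reabsorbs salt without water, Lcn2 and Dcdc2a rose, where 0.69% of genes rose. The number of markers called there was 9 without doublet removal, 6 at the finer Leiden resolution of 2 or without the filter on low counts, and 5 with cell types from markers of single cells, while the share of all genes called in either direction went from 1.49% to 4.02%, 3.07%, 2.92% and 2.14%. Lcn2 went from 6.39, 4.67 and 5.78 CPM to 56.3, 38.4 and 39.0 CPM (log2 change 2.95 ± 0.21 (SE), adjusted p = 1.3e-04) and Dcdc2a from 19.2, 15.7 and 13.2 CPM to 42.9, 44.9 and 71.1 CPM (log2 change 1.69 ± 0.21 (SE), adjusted p = 0.0026). With mitochondrial UMIs limited to 20%, Dcdc2a did not pass (log2 change 0.96, adjusted p = 0.11). Fibroblast markers in these cells summed to 0.824 to 3.95 CPM in sham mice and 12.6 to 22.1 CPM in DOCA-salt mice (5 of 7 above in every DOCA-salt mouse). Macrophage markers summed to 34.7 to 38.8 CPM and 43.9 to 55.7 CPM (4 of 8). Their part was not tested. Sox9 had 8.06, 14.6 and 7.22 CPM in the sham mice and 13.6, 13.8 and 18.0 CPM in the DOCA-salt mice, with the groups overlapping (log2 change 0.64 ± 0.24 (SE), adjusted p = 0.27). In the thin limb, Lcn2 (15.2, 6.59 and 13.3 CPM in the sham mice and 35.5, 91.9 and 70.1 CPM in the DOCA-salt mice, log2 change 2.49 ± 0.36 (SE), adjusted p = 0.014) and Spp1 (1.91 ± 0.21, adjusted p = 0.0048) rose, where 0.463% of genes rose. The call of Lcn2 in the thin limb was lost in 3 of the 6 fits without 1 mouse (adjusted p up to 0.064). Cdkn1a was high in the thin limb of both groups, at 263 to 411 CPM in sham mice and 256 to 325 CPM in DOCA-salt mice (log2 change -0.16 ± 0.16 (SE), adjusted p = 0.79).

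Principal cells, the water- and sodium-handling cells of the collecting duct, carried the most Lcn2 per cell among the tested tubular classes in both groups. It rose there from 422, 194 and 237 CPM to 963, 1487 and 895 CPM (log2 change 2.03 ± 0.28 (SE), adjusted p = 7.1e-04), with every DOCA-salt mouse above every sham mouse. Spp1 rose from 214, 431 and 329 CPM to 3149.8, 2648 and 4004 CPM (log2 change 3.39 ± 0.25 (SE), adjusted p = 9.9e-06) and Dcdc2a from 10.7, 7.46 and 8.97 CPM to 36.3, 62.3 and 83.9 CPM (log2 change 2.80 ± 0.31 (SE), adjusted p = 1.6e-04). These were 3 of the 10 markers, where 4.45% of genes rose. The sham levels of Spp1 in principal cells lay within or near the range of B cells of sham mice, taken below as cells that should lack it. In principal cells, connecting tubule markers summed to 995 to 1312 CPM in sham mice and 1685 to 2321 CPM in DOCA-salt mice. Their own markers summed to 19556 to 20926 CPM and 16650 to 18163 CPM. Macrophage markers summed to 13.5 to 19.6 CPM in sham mice and 27.2 to 79.2 CPM in DOCA-salt mice. Fibroblast markers summed to 0 to 2.33 CPM and 7.26 to 33.7 CPM. Their part in the 3 rises was not tested. In type A intercalated cells, which secrete acid, Spp1 (1.91 ± 0.23) and Dcdc2a (2.87 ± 0.53) rose, where 0.908% of genes rose, but Dcdc2a lay at no more than 11.8 CPM and did not pass without DOCA-salt mouse 1 (adjusted p = 0.05). In type A cells macrophage markers summed to 15.7 to 37.1 CPM in sham mice and 76.2 to 97.1 CPM in DOCA-salt mice, fibroblast markers to 2.95 to 12.9 CPM and 25.1 to 33.3 CPM, and genes that respond to dissociation to 7937 to 10997 CPM and 6079 to 6899 CPM. Their part was not tested. In type B intercalated cells Lcn2 (3.45 ± 0.67), Sox9 (4.14 ± 0.43), Clu (1.43 ± 0.32) and Dcdc2a (6.46 ± 0.65) rose, where 3.99% of genes rose, although Lcn2 was lost in 1 and Clu in 3 of the 6 fits without 1 mouse. Nearly all of that Lcn2, Sox9 and Dcdc2a was in 1 cluster whose leading genes included those of the connecting tubule (197 cells in sham and 147 in DOCA-salt mice). Without that cluster the remaining cells held 10 Lcn2, 4 Sox9 and 12 Dcdc2a UMIs in DOCA-salt mice, too few to test, and Spp1 (log2 change 1.013, adjusted p = 0.035) and Clu (1.26, 0.026) passed. In all type B cells fibroblast markers summed to 31.5 to 48.4 CPM in sham mice and 96.1 to 119 CPM in DOCA-salt mice. Genes that respond to dissociation summed to 7793 to 10705 CPM and 5314 to 7370 CPM. The part of both lists in these changes was not tested.

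**Figure D4:**
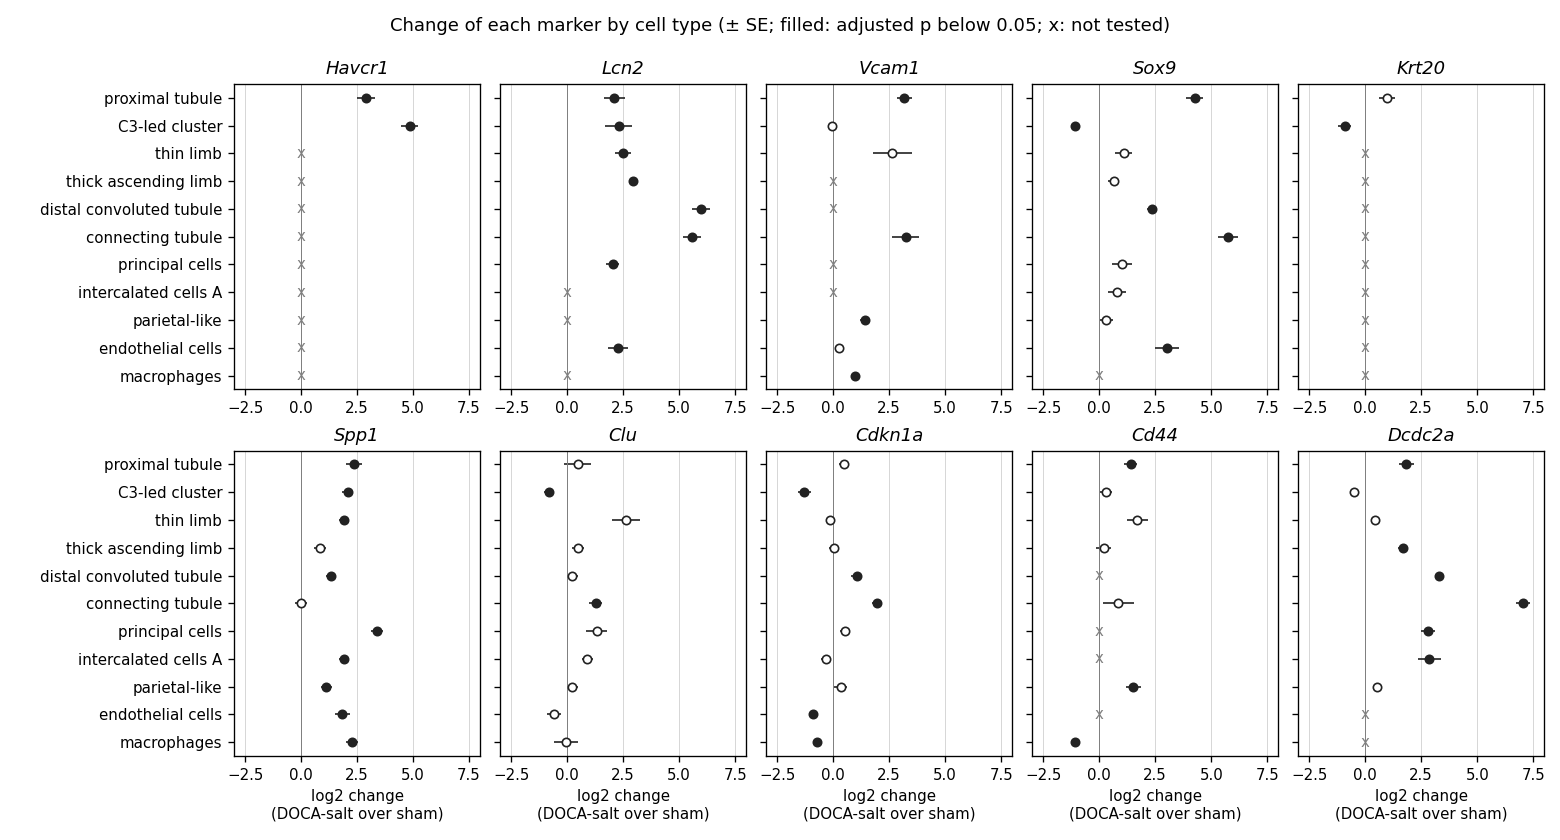
Log2 change of each marker (horizontal axis, DOCA-salt over sham, ± SE) in 11 cell types, with filled points at adjusted p below 0.05 and a cross where too few UMIs allowed a test. Dcdc2a and Lcn2 have filled points to the right in most tubular segments, and Sox9, Krt20, Clu and Cdkn1a have filled points to the left in the C3-led cluster.

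Spp1, the osteopontin gene, was the most widely found marker, and its UMIs reached cells that are not known to make it. B cells, taken as cells that should lack it, held 103 to 377 CPM in sham mice and 291 to 1381 CPM in DOCA-salt mice. Cells were thinned to 1000 UMIs, and those below that depth were left out. Of B cells, 19.7 ± 10.97% in sham mice and 50.0 ± 25.02% in DOCA-salt mice then held a Spp1 UMI (unthinned over all B cells, 44.8 ± 16.6% and 81.3 ± 16.2%, median depth 2542 and 2905 UMIs). In proximal tubule the thinned share was 36.5 ± 8.30% in sham mice and 81.0 ± 7.47% in DOCA-salt mice (unthinned, 72.2 ± 7.77% and 97.7 ± 1.94%; median depth 6826 and 7828 UMIs). Proximal tubule had 456, 1034 and 554 CPM in the sham mice and 3603, 2586 and 4790.4 CPM in the DOCA-salt mice (log2 change 2.36 ± 0.34 (SE), adjusted p = 0.0068), above the B cells of the same mouse in all 6 mice. In endothelial cells (91.95 to 147 CPM in sham mice and 234 to 701 CPM in DOCA-salt mice) and macrophages (113 to 197 CPM in sham mice and 579 to 1227 CPM in DOCA-salt mice) Spp1 was called higher, with log2 changes of 1.85 ± 0.34 and 2.25 ± 0.27. Endothelial cells lay below the B cells of the same mouse in all 6 mice, and macrophages in 3 of the 6. The part of free RNA in both calls was not tested. Fibroblasts, with 24, 6 and 9 cells in sham mice, were not tested, and in DOCA-salt mice held 4305 to 9054 CPM.

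Outside the tubule the markers that are shared with other cell types moved in their own ways. In endothelial cells 3 markers rose, Spp1 included, where 4.82% of genes rose, and 1 fell, where 4.27% fell. The one that fell was Cdkn1a, from 421, 375 and 456 CPM to 218, 234 and 221 CPM (log2 change -0.90 ± 0.13 (SE), adjusted p = 0.002), with the groups well apart. In these cells the genes that respond to dissociation summed to 26172 to 32486 CPM in sham mice and 20348 to 26980 CPM in DOCA-salt mice, with 7 of 17 below in every DOCA-salt mouse. A cluster led by Plvap held 279, 299 and 242 of the 551, 514 and 562 endothelial cells of the sham mice and 399, 542 and 524 of the 571, 796 and 833 of the DOCA-salt mice, and a cluster with Fbln2 and Sox17 among its leading genes held 105, 116 and 152 and then 70, 55 and 68. Their part in the fall of Cdkn1a was not tested. Macrophage markers in endothelial cells summed to 47.4 to 51.9 CPM in sham mice and 106 to 112 CPM in DOCA-salt mice (6 of 8 above in every DOCA-salt mouse). Fibroblast markers summed to 5.03 to 6.09 CPM and 24.0 to 39.7 CPM (5 of 7). Their part in the rises was not tested. Lcn2 and Sox9 were called higher at no more than 4.17 and 5.94 CPM, and the call of Lcn2 was lost in 2 of the 6 fits without 1 mouse (adjusted p up to 0.06). Vcam1, which endothelium uses to bind leukocytes, had 257, 174 and 154 CPM in the sham mice and 223, 257 and 225 CPM in the DOCA-salt mice and overlapped (log2 change 0.27 ± 0.17 (SE), adjusted p = 0.39). In macrophages 2 markers rose, Spp1 included, where 2.44% of genes rose, and 2 fell, where 1.99% fell. Vcam1 rose from 62.6, 77.1 and 67.1 CPM to 116, 173 and 146 CPM (log2 change 0.99 ± 0.19 (SE), adjusted p = 0.0063). Cd44 fell from 759, 646 and 801 CPM to 363, 353 and 412 CPM (log2 change -1.06 ± 0.15 (SE), adjusted p = 9.5e-04) and Cdkn1a from 409, 326 and 385 CPM to 254, 220.4 and 241 CPM (log2 change -0.74 ± 0.15 (SE), adjusted p = 0.0085). Without sham mouse 1, Vcam1 (adjusted p = 0.072) and Cdkn1a (0.052) did not pass. Macrophage clusters differed between the groups: 1 led by Mmp13 and Ifnb1 held 61.2% of macrophages in sham and 3.39% in DOCA-salt mice, and 1 led by Apoe 18.6% and 36.1%. A cluster whose first leading gene was Havcr1 held 6.12% and 17.6%, and its cells were shallow, at a median of 0.107 times the median depth of their library. Fibroblast markers in macrophages summed to 0 to 1.92 CPM in sham mice and 18.6 to 34.1 CPM in DOCA-salt mice (4 of 7 above in every DOCA-salt mouse). The part of the clusters and of these markers in the changes was not tested. T or NK cells, which were not tested, had 197 to 260.1 CPM in sham mice and 453 to 503 CPM in DOCA-salt mice of Cd44. Their clusters differed between the groups: 2 clusters led by genes of natural killer cells held 12, 18 and 6 cells and 13, 13 and 6 cells in the sham mice, and 6, 3 and 6 cells and 3, 3 and 1 cells in the DOCA-salt mice.

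Parietal-like cells, which carry markers of the cells that line Bowman's capsule, had 3 markers higher, where 1.43% of genes were. Vcam1 went from 114, 100.2 and 77.8 CPM to 180.2, 275 and 325 CPM (log2 change 1.40 ± 0.22 (SE), adjusted p = 0.0026), Cd44 from 19.4, 23.7 and 25.9 CPM to 56.0, 44.1 and 105 CPM (log2 change 1.53 ± 0.32 (SE), adjusted p = 0.017) and Spp1 from 3279, 5478 and 2718 CPM to 8799, 6129.8 and 10294 CPM (log2 change 1.12 ± 0.26 (SE), adjusted p = 0.027). The calls of Cd44 and Spp1 were lost in 3 and 4 of the 6 fits without 1 mouse, with adjusted p up to 0.076 and 0.13. Fibroblast markers in parietal-like cells summed to 49.2 to 75.0 CPM in sham mice and 77.2 to 218 CPM in DOCA-salt mice. Macrophage markers summed to 265 to 383 CPM and 157 to 252 CPM. The median depth was 7691 UMIs in sham and 14613 UMIs in DOCA-salt mice. The part of these differences in the 3 rises was not tested. Dcdc2a was high in these cells in both groups, at 307 to 314 CPM in sham mice and 429 to 477 CPM in DOCA-salt mice (log2 change 0.50 ± 0.14 (SE), adjusted p = 0.08). Urothelial cells, which were too few to test (10, 1 and 8 in sham and 30, 31 and 20 in DOCA-salt mice), held 19830.3 to 36876 CPM of Spp1, 404 to 1493 CPM of Lcn2 and 2008 to 5265 CPM of Clu in DOCA-salt mice.

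Changes were compared between segments with a term for the difference, each mouse as a block. Against proximal tubule, 2 markers changed differently in the thick ascending limb, where 3.81% of genes did, and both changed less there. Sox9 differed by -3.57 ± 0.35 (SE, adjusted p = 3.1e-06) and Spp1 by -1.60 ± 0.20 (SE, adjusted p = 3.9e-05). In principal cells 3 did, where 7.7% of genes did. Sox9 differed by -3.12 ± 0.54 (SE, adjusted p = 7.2e-04), Spp1 by 1.02 ± 0.18 (SE, adjusted p = 7.1e-04) and Dcdc2a by 0.95 ± 0.27 (SE, adjusted p = 0.032). That of Dcdc2a was lost in 4 of the 6 fits without 1 mouse (adjusted p up to 0.17) and with library size as the only scaling (0.068). The Spp1 difference starts from sham levels of principal cells within or near those of B cells, as given above. The comparisons with the connecting tubule and the C3-led cluster were added after seeing the data. In the connecting tubule 4 did, where 15.4% of genes did. Dcdc2a differed by 5.17 ± 0.30 (SE, adjusted p = 7.0e-18), Lcn2 by 3.46 ± 0.31 (SE, adjusted p = 8.5e-12), Cdkn1a by 1.43 ± 0.26 (SE, adjusted p = 6.8e-05) and Spp1 by -2.40 ± 0.18 (SE, adjusted p = 2.8e-14). Thus Dcdc2a and Lcn2 changed more in the connecting tubule than in proximal tubule, and Spp1 less. In the C3-led cluster 8 did, where 13.8% of genes did. Havcr1 changed more there, and Vcam1, Sox9, Krt20, Clu, Cdkn1a, Cd44 and Dcdc2a changed less or the opposite way, by -0.95 for Cd44 to -5.18 for Sox9. Those of Krt20 (without sham mouse 3 or DOCA-salt mouse 3) and Cd44 (without sham mouse 2 or DOCA-salt mouse 2) no longer passed when 1 mouse was left out (adjusted p up to 0.14 and 0.52). The comparisons share the proximal tubule sums, in which Sox9 was low in both groups, as given above.

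How often markers occurred in the same cell was counted after cells were thinned to 1000 UMIs, since deeper cells show more genes. Cells with fewer than 1000 UMIs were left out of the thinned shares, so thinned and unthinned shares cover different cells. Proximal tubule held a cluster with few UMIs, of 3835 cells in sham and 2409 in DOCA-salt mice (median 710 and 626 UMIs). In proximal tubule at least 2 of the 10 markers were found in 1.02 ± 0.605% of cells in sham mice and 5.04 ± 1.49% in DOCA-salt mice (exact permutation test, two-sided, p = 0.1, the smallest possible). Unthinned shares were 12.4 ± 2.67% and 32.0 ± 4.23%. Most of these cells owed 1 of the markers to Spp1 or Clu. Without Spp1 and Clu, at least 2 of the other 8 markers were found in 0.0165 ± 0.0134% of cells in sham mice and 0.133 ± 0.0671% in DOCA-salt mice. The mice of each group lay apart from those of the other in all of these counts. A marker without a UMI in a thinned cell may still be expressed there, so these shares are of cells with UMIs at that depth.

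In the C3-led cluster the share with at least 2 markers was higher than in proximal tubule and was lower in DOCA-salt mice. At least 2 of the 8 markers other than Spp1 and Clu were found in 22.6 ± 1.92% of cells in sham mice and 14.7 ± 0.514% in DOCA-salt mice (exact permutation test, two-sided, p = 0.1). With all 10 the shares were 56.8 ± 1.65% and 42.9 ± 0.325%. Unthinned, at least 2 of the 8 were found in 76.2 ± 1.44% and 73.2 ± 0.355% of cells.

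Pairs of markers in these cells were set against the product of their separate shares within each mouse, a description across cells that share a library and for which no test is given. In the DOCA-salt mice Vcam1 and Cd44 occurred together 2.92 to 3.42 times as often as that product, the highest ratio among pairs with enough cells. Havcr1 occurred with Vcam1 at 1.82 to 2.55 times, with Dcdc2a at 1.39 to 2.08 times and with Sox9 at 1.10 to 1.56 times. Cd44 occurred with Dcdc2a at 2.04 to 2.87 times and with Sox9 at 1.85 to 2.20 times. All 3 mice lay above 1 for each of these pairs. C3-led cells had median depths of 13711 UMIs in sham and 18687 UMIs in DOCA-salt mice. Their median Scrublet doublet scores were 0.112 and 0.098, against 0.063 and 0.058 in proximal tubule. Macrophages held both Vcam1 and Cd44, as given above. The part of remaining doublets in these pairs was not tested. Pairs with Spp1, which nearly every cell held, stayed close to 1, as with Vcam1 at 1.00 to 1.007 times. In proximal tubule only 9 pairs reached 5 expected cells over the mice, and the 3 above 1 in every DOCA-salt mouse paired Spp1 with Havcr1 (1.08 to 1.17), Vcam1 (1.08 to 1.15) and Sox9 (1.07 to 1.21).

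**Figure D5:**
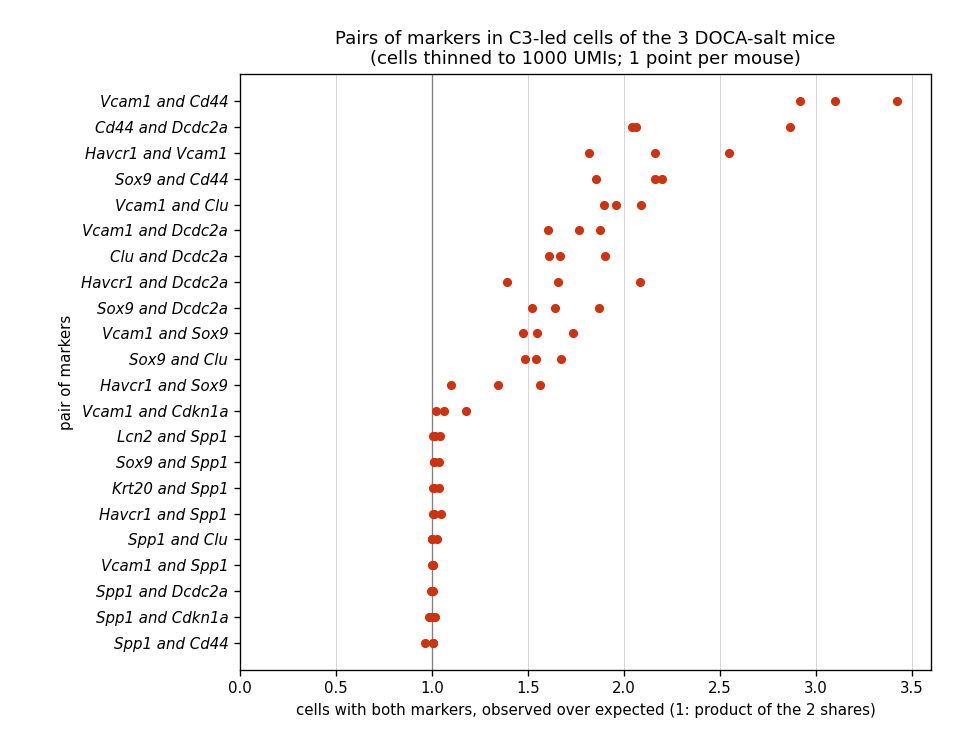
Cells of the C3-led cluster with both markers of a pair, as a ratio to the number expected from the product of their shares (horizontal axis, 1 point per DOCA-salt mouse, cells thinned to 1000 UMIs). The pairs of Vcam1, Cd44, Havcr1, Sox9, Clu and Dcdc2a lie above 1 in each mouse, and pairs with Spp1 lie near 1.

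Other genes of injury, inflammation and transport were read from lists that had been set with earlier results of these data known. Of 24 tested genes of dedifferentiation and injury, 9 rose and none fell in proximal tubule, where 4.55% of all genes rose and 2.08% fell, with a median log2 change of 0.60 beside -0.02 over all genes. Timp1, an inhibitor of matrix proteases, had 0.0142 ± 0.0131 and 1.44 ± 0.320 CPM in sham and DOCA-salt mice (log2 change 6.37 ± 0.50 (SE), adjusted p = 6.7e-04), Runx1, a transcription factor, 1.03 ± 0.352 and 3.98 ± 0.355 CPM (log2 change 1.88 ± 0.24 (SE), adjusted p = 0.0041) and the annexin Anxa3 1.19 ± 0.391 and 3.29 ± 0.946 CPM (log2 change 1.39 ± 0.29 (SE), adjusted p = 0.026). Timp1 is also among the leading genes of the fibroblasts (39 cells in sham and 843 in DOCA-salt mice), whose markers were higher in these cells as given above. Their part in its rise was not tested. The integrin subunit Itgb6, more abundant, had 140.3 ± 32.8 and 257 ± 41.7 CPM (log2 change 0.81 ± 0.18 (SE), adjusted p = 0.033), while Ccn1 (419 ± 66.2 and 379.7 ± 42.5 CPM) and S100a10 (149.5 ± 10.5 and 206 ± 18.5 CPM) did not pass. In the connecting tubule 20 of 22 rose (11.7% of all genes), in the distal convoluted tubule 17 of 21 (4.64%), in principal cells 14 of 21 (4.45%) and in the thick ascending limb 3 of 22 (0.69%), with none of the list lower. Anxa3 had 2.14 ± 1.28 and 116 ± 39.2 CPM and S100a10 77.9 ± 16.5 and 507 ± 6.50 CPM in the connecting tubule (log2 change 2.52 ± 0.18 (SE), adjusted p = 3.7e-07 for S100a10). In C3-led cells, where 3.83% of all genes rose and 6.86% fell, 4 of 24 rose and 9 fell, among them S100a10 (1283 ± 22.0 and 708 ± 51.1 CPM, log2 change -0.84 ± 0.15 (SE), adjusted p = 0.0012).

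Of 14 genes of NF-kB signaling and chemokines, 5 rose and none fell in proximal tubule, beside 4.55% and 2.08% of all genes. Complement C3 had 4.45 ± 1.02 and 33.7 ± 3.87 CPM (log2 change 2.86 ± 0.16 (SE), adjusted p = 2.2e-04), Ccl2, which draws monocytes, 0.219 ± 0.129 and 1.72 ± 0.785 CPM (log2 change 2.92 ± 0.47 (SE), adjusted p = 0.01) and Cxcl2, which draws neutrophils, 1.86 ± 1.14 and 5.38 ± 1.00 CPM (log2 change 1.45 ± 0.36 (SE), adjusted p = 0.045). Ccl2 leads macrophage clusters too, and it stayed past the threshold without the cluster with macrophage genes (log2 change 2.90 ± 0.47 (SE), adjusted p = 0.011). The part of the macrophage markers in the other proximal tubule cells was not tested. The inhibitor Nfkbia (55.4 ± 17.8 and 45.3 ± 5.37 CPM) and Cxcl16 (37.7 ± 10.7 and 61.4 ± 15.8 CPM) did not pass. In C3-led cells 1 rose and 5 fell, beside 3.83% and 6.86% of all genes, Nfkbia from 1299 ± 311 CPM to 562 ± 100.03 CPM among them. Of 10 targets of p53, the regulator that induces Cdkn1a, none passed in proximal tubule in either direction (Bax 88.6 ± 19.1 and 75.9 ± 12.3 CPM, Ccng1 66.8 ± 4.42 and 55.0 ± 3.08 CPM, Mdm2 57.4 ± 7.52 and 52.9 ± 6.93 CPM), 1 fell in C3-led cells, and 4 of 9 rose in the connecting tubule, where 11.7% of all genes did, Bax by 1.007 ± 0.16. Of 16 genes of proximal tubule transport and metabolism, 1 rose and none fell in proximal tubule, Pck1 of gluconeogenesis (859 ± 69.1 and 1670.4 ± 208 CPM, log2 change 0.90 ± 0.15 (SE), adjusted p = 0.012), and in C3-led cells 14 of 16 rose and none fell. The phosphate transporter Slc34a1 went from 1348 ± 271 CPM to 2216 ± 74.0 CPM there (log2 change 0.73 ± 0.18 (SE), adjusted p = 0.014). Miox and Slc4a4 rose in C3-led cells as well (log2 1.22 ± 0.21 and 0.81 ± 0.19). Several genes of this list, Slc34a1 and Miox among them, also name the proximal tubule class, and the list was open to use in clustering. A cell low in them could fall outside the class, which limits what a count of falls within it can show. In whole kidneys, where the share of proximal tubule cells was lower too, 1 of the 16 rose and 7 fell, beside 11.5% and 5.72% of all genes.

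Among ligand and receptor partners of the markers, 9 of 12 could be tested in proximal tubule, and Itgb3, an integrin subunit that binds osteopontin, rose at a low level (0.320 ± 0.119 and 2.24 ± 0.547 CPM, log2 change 2.75 ± 0.31 (SE), adjusted p = 0.0023). Lrp2, a receptor that takes up NGAL, had 1209.8 ± 259 and 1444 ± 106 CPM, and the integrins Itgav and Itgb1 83.3 ± 6.49 and 114 ± 7.59 CPM and 76.4 ± 4.11 and 80.4 ± 3.64 CPM, and none of these 3 passed. Of 17 genes that respond to dissociation, none rose and 1 fell in proximal tubule, Egr1 (78.8 ± 5.37 and 60.7 ± 2.27 CPM, log2 change -0.44 ± 0.10 (SE), adjusted p = 0.042), while Jun (1598 ± 333 and 1326 ± 111 CPM), Jund (1214 ± 305 and 950.1 ± 195 CPM) and Fos (505 ± 70.6 and 573 ± 93.3 CPM) did not pass.

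The genes with the level pattern most like each marker were found by Pearson's r over 42 points, the means of 21 cell types in each group, which share libraries and depth, and no test is given. For Havcr1 they were Serpina10 (0.73), Fga (0.63) and Kcnh8 (0.62), and for Krt20 Kcnh8 (0.87), Gm8126 (0.72) and Stra6 (0.71). Sox9 and Dcdc2a were in each other's lists, with Ctxn1 (0.86), Dcdc2a (0.85) and Cdh3 (0.83) for Sox9 and Sox9 (0.85), Aoc1 (0.81) and Ctxn1 (0.81) for Dcdc2a. Lcn2 was most like S100a14 (0.87), Krt19 (0.86) and Macc1 (0.81), and Clu most like Adamts16 (0.90), Gpr39 (0.88) and Shisa4 (0.87). Vcam1 was most like Pdgfb (0.82) and Lgals3bp (0.80), Spp1 like Bicc1 (0.79), Smtnl2 (0.76) and Cxxc5 (0.76), Cdkn1a like Trafd1 (0.88), Ripk1 (0.86) and Rac1 (0.86) and Cd44 like Runx1 (0.92), Malt1 (0.92) and Nsa2 (0.91). The highest r of any marker was that of Cd44 with Runx1.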

How the data were processed

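Kidney cells of 3 sham and 3 DOCA-salt mice were measured by 3′ single-cell RNA sequencing, with 1 library per mouse, so the mouse is the replicate and p-values measure the spread between mice. The files the authors deposited hold raw counts of UMIs, whole numbers for every gene in each barcode called as a cell. The submitters' processing notes name Cell Ranger 9.0.0, Seurat 4.0.0, R 4.0.3 and GRCm39, while the file headers name Cell Ranger 8.0.1; the gene annotation release is not given in the sources used here. The 10 markers, the lists and the tests were chosen with earlier results of these data known.

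Barcodes were kept that had 500 UMIs and 170 genes or more, with mitochondrial UMIs up to 50% and hemoglobin UMIs up to 5%. Doublets were removed as the highest Scrublet scores, 0.8% per 1000 cells. Cells were clustered in Scanpy 1.11.5 (30 components, 15 neighbors, Leiden resolution 1) without the 10 markers among the variable genes, and clusters were named from fixed marker lists. The C3-led cluster was named by its first leading gene instead. A cluster of which 1 mouse gave over 80% of the cells was set aside. UMIs were summed per mouse and type with at least 10 cells in every mouse and tested with edgeR 4.0.16 in R 4.3.3 (quasi-likelihood F test, TMM, its filter on low counts, adjusted p below 0.05). B, T or NK, dendritic and cycling cells, monocytes, and smooth muscle cells or pericytes also had that many cells but were not among the types tested. The filter on low counts keeps a gene with enough counts in as many mice as 1 group holds. A marker low in sham mice could thus enter a fit through the DOCA-salt mice and could then hardly be called lower. DESeq2 1.42.0, other scalings, no filter, other cell filters and cell names, and leaving out each mouse were alternatives. CPM are unadjusted sums scaled to the total of the same mouse and type. Shares were compared with exact permutation tests (SciPy 1.17.1). Intervals and floors (3 counts over a group) cover counting error only. Genes other than the 10 markers are, for each list, the 3 largest changes past the threshold in proximal tubule and the 3 most abundant, and for each marker the 3 genes most like it among those with at least 5 CPM, of which 1 is not reported here. Upstream windows were read from the GRCm39 reference with its GENCODE annotation. Tested on simulated counts, the edgeR fit recovered 99 of 100 4-fold and 61 of 100 2-fold changes in proximal tubule with 9 false calls, and 100 of 100 and 91 of 100 in C3-led cells with 7 false calls. The changed genes were drawn from those with over 10 expected counts in the smallest library, so these rates do not cover markers with fewer counts.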

Additional observations from a re-analysis of the deposited data

Results flagged for a closer look

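The change of a marker differed between a segment and proximal tubule, by a test of the difference itself (edgeR, log2 change in the segment less that in proximal tubule, adjusted p below 0.05), in 17 instances. In the thick ascending limb the differences were -3.57 for Sox9 and -1.60 for Spp1. In principal cells they were -3.12 for Sox9, 1.02 for Spp1 and 0.95 for Dcdc2a, and that of Dcdc2a was lost in 4 of the 6 fits without 1 mouse and with library size as the only scaling. In the connecting tubule they were 3.46 for Lcn2, -2.40 for Spp1, 1.43 for Cdkn1a and 5.17 for Dcdc2a. In the C3-led cluster they were 2.25 for Havcr1, -3.11 for Vcam1, -5.18 for Sox9, -1.71 for Krt20, -1.25 for Clu, -1.73 for Cdkn1a, -0.95 for Cd44 and -2.31 for Dcdc2a. Of these, Havcr1 no longer passed without sham mouse 3, Krt20 without sham mouse 3 or DOCA-salt mouse 3, and Cd44 without sham mouse 2 or DOCA-salt mouse 2. Sox9 is a leading gene of that cluster, and the part of how the classes were drawn in its difference was not tested. The comparisons with the connecting tubule and the C3-led cluster were added after seeing the data. No group had enough mice for a check of single mice far from the others.

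The clusters that came almost wholly from DOCA-salt mouse 2 and were kept out of every cell type, though not out of the whole-kidney sums, held 60.4 CPM of Lcn2 and 51.1 CPM of Vcam1, pooled over the mouse's cells in them, against at most 1.18 and 1.17 CPM in proximal tubule of any sham mouse.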

How the results depend on the processing

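Of 103 marker changes called in the report, 1368 recomputations kept the direction in every case, 1261 also kept the call, and 107 no longer passed the threshold. Recomputations in which a marker could not be tested were not counted. Among them were Lcn2, Sox9 and Dcdc2a in type B intercalated cells without the cluster led by connecting tubule genes. DESeq2 lost 6 of 86, library size as the only scaling 1 of 103, cell types from markers of single cells 6 of 57, no doublet removal 4 of 73, and a limit of 20% mitochondrial UMIs 3 of 72. Leaving out DOCA-salt mouse 3 lost the most, 17 of 102.

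Counts of called markers moved by more than 1.5 times as follows. Without the filter on low counts they were 7 in the thin limb (from 2), 6 in the thick ascending limb (from 2), 6 in principal cells (from 3), 6 in type A intercalated cells (from 2), and 4 for the difference between thick ascending limb and proximal tubule (from 2), an alternative chosen after seeing the data. Without doublet removal they were 9 in the thick ascending limb and 5 in principal cells. At Leiden resolution 2 they were 6 in the thick ascending limb and 2 in type B intercalated cells (from 4). With cell types from markers of single cells they were 4 in the thin limb, 5 in the thick ascending limb and 5 in parietal-like cells (from 3). Without the cluster led by connecting tubule genes, also chosen after seeing the data, 2 were called in type B intercalated cells. The share of all genes called in either direction moved as well, without doublet removal from 1.49% to 4.02% in the thick ascending limb and from 7.97% to 7.13% in principal cells, and without the filter from 0.652% to 2.29% in the thin limb, from 7.97% to 6.76% in principal cells and from 2.19% to 2.29% in type A intercalated cells. With cell types from markers of single cells it went from 2.99% to 11.8% in parietal-like cells. In the thin limb it then rose from 0.652% as well. In type B intercalated cells it went from 6.62% to 6.16% at Leiden resolution 2. Without the cluster led by connecting tubule genes it was 5.74% there. The causes were not tested. The rise in the share of proximal tubule cells with at least 2 markers was 4.96 times with thinning and 2.57 times without. The 3 pairs above 1 in proximal tubule of every DOCA-salt mouse became 6 at 500 UMIs and 7 without thinning.

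With 1 mouse left out, the counts ranged from 4 to 7 in proximal tubule (7 with all mice), 3 to 6 in the C3-led cluster (7), 1 to 3 in the thin limb (2), 2 to 4 in the thick ascending limb (2), 1 to 3 in type A intercalated cells (2), 1 to 3 in parietal-like cells (3), 2 to 4 in macrophages (4), 3 to 6 in S1 (5) and 4 to 7 in S2 (7). The share ratio ranged from 4.06 to 7.50 and the pairs from 3 to 5. The share of all genes called in either direction moved with the counts. Without DOCA-salt mouse 3 it was 1.53% in proximal tubule (from 6.63%), 0.923% in S1 (4.02%) and 3.43% in S2 (9.7%). Without sham mouse 1 it was 6.64% in the C3-led cluster (10.7%), 0.067% in the thin limb (0.652%) and 2.05% in macrophages (4.43%). In the thick ascending limb it was 5.38% without sham mouse 2 (1.49%). A fit with 1 sample fewer has fewer degrees of freedom.

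The labels number the mice 1 to 3 in both groups, but same-numbered mice did not deviate together (correlations of -0.0188, -0.413 and -0.0479 in whole kidneys and -0.154, -0.386 and 0.00159 in proximal tubule). They were not paired in the main fits. With 3 mice in each group, these correlations cannot show whether same-numbered mice were handled together. With the replicate block 4 markers were called in proximal tubule, 1 in type A and 2 in type B intercalated cells and 3 in S1, and 13 of 86 calls were lost. The share of all genes called in either direction was then 1.39% in proximal tubule (6.63% without the block) and 0.941% in S1 (4.02%). It was 0.551% in type A cells (2.19%) and 2.09% in type B cells (6.62%).

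Havcr1 had too few UMIs for a test in the tested cell types other than proximal tubule and C3-led cells, and the 99 C3-led cells of sham mice limit every level there. Cell names rest on rebuilt clusters, and loss of a kidney, hormone and salt cannot be told apart.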
